A study of Mus musculus with 5 samples.

Results

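The 10 megakaryocyte and platelet genes described here were taken by symbol from the 27179 genes whose H3K14ac was counted, and all 10 were found: Gfi1b, Itga2b, Itgb3, Gp1ba, Gp1bb, Gp9, Gp6, Pf4, Ppbp and Vwf. H3K14ac is an acetylated lysine in the tail of histone H3, and HBO1 (also called KAT7) is an acetyltransferase known to place it. CUT&Tag libraries were made, for which an antibody against the mark guides the Tn5 transposase to cut and tag the DNA around it. Bone marrow of male C57BL/6 mice was sorted for LSK cells, named for lacking lineage markers and carrying Sca-1 and Kit, among which are the stem cells and first progenitors of the blood. The Hbo1 knockout group held 2 libraries of genotype Hbo1def/def; T/+, and the heterozygous control group held 2 libraries of genotype Hbo1def/+; T/+. All of them came from mice given poly(I:C), which switches on the interferon-responsive Mx1-cre transgene in blood cells and in other cells, so the controls also carried 1 def allele and the same treatment. What T/+ stands for is not spelled out in the labels. A further library, of HBO1 itself in control cells, was not analysed here.

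Megakaryocytes are the large marrow cells that shed platelets. They arise from stem and progenitor cells under factors such as GATA1, GFI1B, RUNX1, FLI1 and NF-E2. Platelets catch on damaged vessels through the GPIb-IX receptor, which binds von Willebrand factor, and through glycoprotein VI, which binds collagen. They then stick to each other through the fibrinogen receptor, integrin αIIbβ3, and release granules that hold PF4, PPBP and von Willebrand factor. In mice, Itga2b and Vwf are also known to be used in part of the stem cell pool, so these genes belong to the biology of LSK cells as well as of platelets.

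The deposited counts cover 3 regions of every gene, each counted in a table of its own: the 5 kb before the start site (upstream), the gene body, and the 5 kb after the end (downstream). Upstream totals were 869859 to 1065978 counts in knockout libraries and 1078248 to 1164409 in controls. Gene body totals were 4723549 to 6031189 in knockout libraries and 10572534 to 12386891 in controls, and downstream totals were 677213 to 732658 and 1142652 to 1260351. Levels below are in CPM, the depth-scaled count unit, with TMM factors set within each region class. They are levels of a histone mark in a pool of cells, so fewer marked cells and less mark per cell cannot be told apart. A gene was called when the adjusted p of edgeR's quasi-likelihood test, over all genes of the region class, was under 0.05. Whether the libraries of a group are from different animals is not in the labels, and the spread that the p-values rest on may be technical. A mark over the Kat7 gene does not check its deletion: its log2 fold was -0.97 upstream (adjusted p = 0.0872) and 1.06 in the gene body (adjusted p = 0.00668, higher in knockout).

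Only 2 of the 29 member regions tested were called, 1 in each direction. H3K14ac fell upstream of Ppbp, a platelet chemokine gene, to 0.403-fold in knockout libraries. It rose in the window downstream of Gp1ba, the ligand-binding chain of the von Willebrand factor receptor, to 5.49-fold, in a window that also holds the start sites of 2 other genes. Upstream, 1 of 10 members was called, against 38.3% of all 23200 upstream regions tested (24% higher and 14.3% lower in knockout). In gene bodies 0 of 9 members were called by edgeR, against 38.3% of 21393 gene bodies (23.1% higher and 15.2% lower). That count was also 0 with DESeq2's Wald test. In edgeR 2 members, Itga2b and Gp6, had an unadjusted p under 0.05, as did 10378 of the 21393 gene bodies. Downstream 1 of 10 members was called, against 13.1% of 21566 windows (10.8% higher and 2.29% lower). The member standard errors were of ordinary size, with a median of 0.49 upstream, against 0.5 for all genes, and 0.41 in gene bodies for both.

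**Figure D1:**
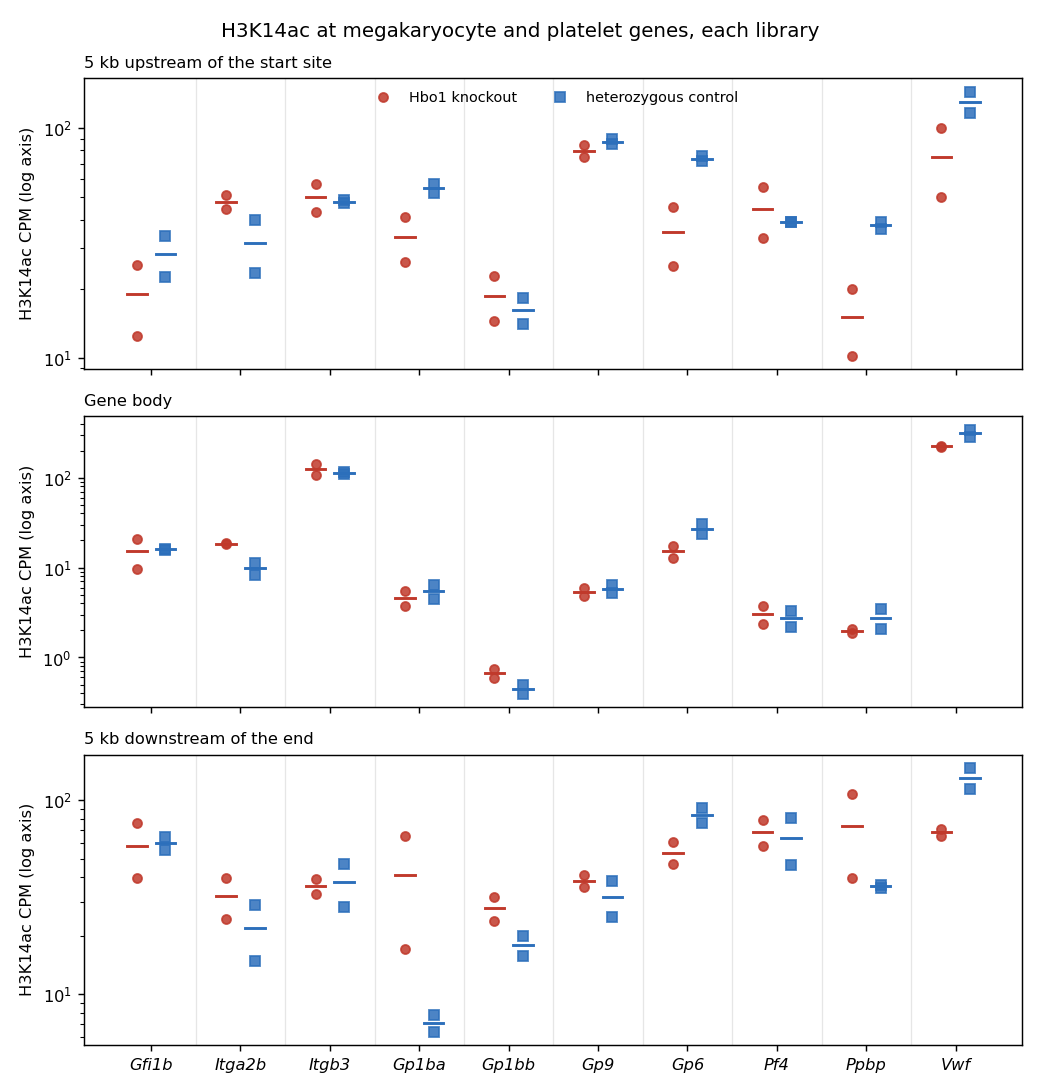
H3K14ac in CPM (log axis) of the 10 genes in each library, in the 3 region classes. Red circles are the 2 Hbo1 knockout libraries and blue squares the 2 heterozygous controls, with bars at the group means. Gp6 and Vwf lie lower in both knockout libraries than in both controls in all 3 panels. So do 18.6% of the 17654 genes tested in all 3 region classes. Gp1ba stands out downstream, where the knockout libraries had 65.3 and 17.1 CPM and the controls 7.83 and 6.38 CPM.

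**Figure D2:**
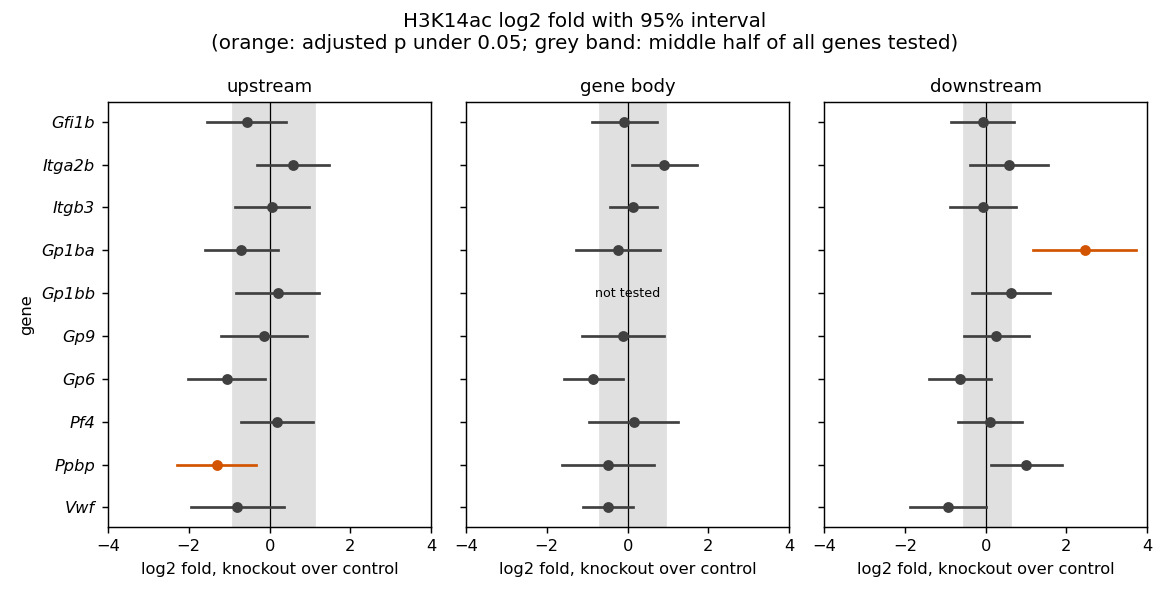
Log2 fold (knockout over control) of each member with its 95% interval from edgeR, in the 3 region classes. Orange marks an adjusted p under 0.05, the grey band is the interquartile range of all genes tested, and Gp1bb was too low in the gene body to be tested. Ppbp upstream (-1.31) and Gp1ba downstream (2.46) are the 2 called values.

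Levels can be ranked among the 10 genes per length. The upstream windows are all 5 kb long, and there the mean level in knockout libraries was highest at Gp9 (79.6 CPM) and Vwf (74.9 CPM), against 87.4 and 131 CPM in controls. It was lowest in knockout libraries at Ppbp (15.1 CPM), Gp1bb (18.6 CPM) and Gfi1b (19.0 CPM), against 37.7, 16.2 and 28.3 CPM in controls. Gp9 and Vwf overlapped each other in knockout libraries, while in controls both Vwf values lay above both Gp9 values. Over gene bodies the means per kilobase in knockout libraries ran from 0.32 CPM (Gp1bb) and 0.52 CPM (Gp6) to 3.21 CPM (Pf4) and 3.29 CPM (Gp9), and the control means of these 4 genes were 0.21, 0.94, 2.87 and 3.56 CPM. The short genes Pf4 and Gp9 could not be ordered in knockout libraries: Pf4 had 21.1 and 16.9 counts per kilobase and Gp9 had 19.7 in both. Gp6 stood under Itga2b in both knockout libraries and above it in both controls, with 2.38 and 4.03 counts per kilobase for Gp6 in knockout libraries, against 10.7 and 8.2 in controls, and 6.09 and 7.35 for Itga2b in knockout libraries, against 5.0 and 6.93 in controls. Unscaled counts also carry the difference in depth between libraries, so these are read within a library only.

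Gfi1b (chromosome 2, 28609450 to 28621982, minus strand, GRCm38) encodes a zinc finger repressor needed for red cell and megakaryocyte formation. Upstream it had 12.5 and 25.5 CPM in knockout libraries, against 22.6 and 34.0 CPM in controls. In its gene body it had 20.7 and 9.54 CPM in knockout libraries, against 15.8 and 16.03 CPM in controls. The groups overlapped in both regions, and also downstream, where the knockout libraries had 76.4 and 39.6 CPM and the controls 65.0 and 55.1 CPM. The log2 folds were -0.57 ± 0.50 (SE) upstream, -0.08 ± 0.40 in the gene body and -0.08 ± 0.37 downstream, with adjusted p of 0.348, 0.886 and 0.916 in edgeR. Each of these signs turned positive when libraries were scaled on the receptor genes of smell and pheromone sensing, a class silent in blood (receptor gene scaling; 0.27 upstream). The 95% interval upstream, -1.54 to 0.41, includes both a large loss and no difference.

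The integrin genes are Itga2b, which encodes the αIIb chain (CD41) and is among the earliest markers of the megakaryocyte lineage, and Itgb3, which encodes its partner β3. Itga2b (chromosome 11, 102453297 to 102469883, minus strand) had 18.7 and 18.2 CPM over its gene body in knockout libraries, against 8.20 and 11.4 CPM in controls. Both knockout libraries lay above both controls, as in 40.6% of all gene bodies. The log2 fold was 0.91 ± 0.41 (SE; 95% interval 0.10 to 1.72), but the adjusted p was 0.0666 in edgeR. This value passed the edgeR threshold with library totals pooled over the region classes (log2 fold 1.12, adjusted p = 0.0408). It also passed with receptor gene scaling (1.55, 0.0499). Those scalings lifted the median of all gene bodies by 0.22 and 0.65. The Itga2b value did not pass with DESeq2's Wald test (0.90, 0.0733) or with a replicate block in edgeR (0.93, 0.224). With single libraries left out, its log2 fold ranged from 0.68 to 1.16. Upstream, Itga2b had 44.3 and 51.0 CPM in knockout libraries, against 23.4 and 39.8 CPM in controls, again with the groups apart (log2 fold 0.59 ± 0.45, adjusted p = 0.285). Downstream it had 24.2 and 39.6 CPM in knockout libraries, against 14.9 and 28.7 CPM in controls, and the groups overlapped (0.58 ± 0.46, adjusted p = 0.433). Its log2 fold stayed positive in all 3 regions under every alternative tried. A positive value in all 3 regions was found in 30% of the 17654 genes tested in all of them.

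Itgb3 (chromosome 11, 104608000 to 104670473, plus strand) is the other chain of the same receptor. Its gene body had 141 and 106 CPM in knockout libraries, against 115 and 108 CPM in controls. Upstream it had 56.8 and 43.2 CPM in knockout libraries, against 48.6 and 47.2 CPM in controls. The control values lay inside the knockout range in both regions, and the log2 folds were 0.15 ± 0.29 and 0.06 ± 0.47 (SE; adjusted p = 0.701 and 0.924 in edgeR). Downstream the log2 fold was -0.07 ± 0.39, with 39.2 and 33.0 CPM in knockout libraries and 28.2 and 47.1 CPM in controls. The gene body interval of -0.42 to 0.72 is the narrowest of the 29 member regions tested. This 62474-base gene gathered 761 and 712 counts in knockout libraries and 1160 and 1095 in controls.

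The 250 bases before the RefSeq start sites are shown for 4 of the members, with capitals on every match to the GATA and ETS motifs described further on. They stand for the 2 members with a called region (Ppbp and Gp1ba) and for the pair whose log2 folds kept opposite signs in all 3 regions (Gp6 and Itga2b). The sequences are from RefSeq on GRCm38.p6, 5′ to 3′ on the strand of the gene. They lie at chr5:90768268-90768517 (plus strand, Ppbp), chr11:70638872-70639121 (plus, Gp1ba), chr7:4397852-4397994 (minus, Gp6, whose last 107 bases before the start are left out) and chr11:102469884-102470133 (minus, Itga2b).
Ppbp: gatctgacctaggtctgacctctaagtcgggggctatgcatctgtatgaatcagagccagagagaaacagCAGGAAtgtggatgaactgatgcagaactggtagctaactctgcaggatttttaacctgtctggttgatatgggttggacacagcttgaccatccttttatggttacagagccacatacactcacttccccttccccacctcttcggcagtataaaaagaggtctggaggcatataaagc
Gp1ba: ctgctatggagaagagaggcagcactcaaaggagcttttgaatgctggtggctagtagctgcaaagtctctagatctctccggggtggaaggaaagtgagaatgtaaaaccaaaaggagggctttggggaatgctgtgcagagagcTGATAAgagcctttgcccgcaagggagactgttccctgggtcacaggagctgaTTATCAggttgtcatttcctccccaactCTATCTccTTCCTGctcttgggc
Gp6: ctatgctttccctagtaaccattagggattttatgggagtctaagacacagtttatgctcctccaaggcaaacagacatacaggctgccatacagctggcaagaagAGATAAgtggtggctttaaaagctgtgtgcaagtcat
Itga2b: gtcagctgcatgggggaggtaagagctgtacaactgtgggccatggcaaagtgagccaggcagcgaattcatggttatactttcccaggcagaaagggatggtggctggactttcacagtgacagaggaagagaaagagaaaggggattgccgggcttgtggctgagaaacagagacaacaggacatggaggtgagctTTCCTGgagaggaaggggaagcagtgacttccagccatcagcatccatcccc

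The GPIb-IX receptor, which tethers platelets to von Willebrand factor under flow, is built from the products of Gp1ba, Gp1bb and Gp9. Gp1ba (chromosome 11, 70639122 to 70643986, plus strand) encodes the ligand-binding chain. Downstream of it, the knockout libraries had 65.3 and 17.1 CPM, against 7.83 and 6.38 CPM in controls. Both knockout libraries lay above both controls, with a much wider spread (41.2 ± 34.0 CPM in knockout libraries and 7.1 ± 1.0 CPM in controls, SD, n = 2 each). The log2 fold was 2.46 ± 0.60 (SE; 95% interval 1.18 to 3.73; adjusted p = 0.0112 in edgeR). It kept its sign under every alternative, and was lost as a call without knockout replicate 1, where it was 1.26 (adjusted p = 0.46). The counts behind it were 35 and 13 in knockout libraries and 10 and 8 in controls.

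This window is shared ground. The 5 kb after the end of Gp1ba holds the whole of Slc25a11 (3021 bases), a mitochondrial carrier gene, and 1752 bases of Rnf167, a ubiquitin ligase gene, with both start sites. H3K14ac rose at both of these genes: the log2 fold over the gene body was 2.37 ± 0.60 for Slc25a11 (adjusted p = 0.00152 in edgeR) and 2.31 ± 0.54 for Rnf167 (adjusted p = 0.000643). Upstream of Slc25a11 the knockout libraries had 95.5 and 47.6 CPM, against 19.1 and 19.9 CPM in controls. The part of these genes in the Gp1ba value was not tested, as the files give 1 count for the whole window. Elsewhere at Gp1ba the values ran the other way or overlapped. Upstream it had 26.1 and 41.0 CPM in knockout libraries, against 52.1 and 57.2 CPM in controls, with the knockout libraries lower (log2 fold -0.70 ± 0.47, adjusted p = 0.212), though the sign turned with receptor gene scaling (0.19). Over the gene body it had 5.55 and 3.73 CPM in knockout libraries, against 6.42 and 4.45 CPM in controls, which overlapped (-0.24 ± 0.52, adjusted p = 0.734). The deposited length of this gene, 2937 bases, was 60.4% of its RefSeq span, so where its counted end lay is uncertain, and the downstream window with it.

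Gp1bb (chromosome 16, 18620319 to 18622403, minus strand) encodes the β chain of GPIb. Its gene body could not be tested, with 4 and 4 counts in knockout libraries and 5 and 4 in controls. It shares 593 bases with the neighbouring septin gene Septin5, whose gene body also covers the whole upstream window of Gp1bb. Of the 1414 genes lying wholly inside another gene, 89.7% had no gene body count in any library, against 1.9% of the others, so a low count in shared sequence is no measure of the mark there. Upstream of Gp1bb the knockout libraries had 22.7 and 14.4 CPM and the controls 18.2 and 14.1 CPM, which overlapped (log2 fold 0.20 ± 0.52, adjusted p = 0.772 in edgeR). Downstream it had 31.7 and 23.7 CPM in knockout libraries, against 15.7 and 20.0 CPM in controls (0.62 ± 0.46, adjusted p = 0.395).

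Gp9 (chromosome 6, 87778070 to 87779762, plus strand) encodes glycoprotein IX, the small chain that stabilises the receptor. The mark was high there in both groups. Upstream it had 75.01 and 84.2 CPM in knockout libraries, against 89.4 and 85.4 CPM in controls. Over the gene body the values were 5.92 and 4.77 CPM in knockout libraries, against 6.32 and 5.25 CPM in controls. Per kilobase, its gene body stood at the 95.5th percentile of all genes in knockout libraries and the 97.9th in controls. The log2 folds were -0.13 ± 0.54 upstream, -0.12 ± 0.51 in the gene body and 0.27 ± 0.38 downstream (SE; adjusted p = 0.853, 0.870 and 0.683 in edgeR), and the intervals, such as -1.19 to 0.92 upstream, do not show that the groups were alike.

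Gp6 (chromosome 7, 4368713 to 4397744, minus strand) encodes glycoprotein VI, the collagen receptor of platelets. Upstream it had 25 and 45.4 CPM in knockout libraries, against 72.0 and 75.4 CPM in controls. Over the gene body it had 12.8 and 17.5 CPM in knockout libraries, against 30.8 and 23.6 CPM in controls. Downstream it had 46.6 and 60.7 CPM in knockout libraries, against 90.8 and 76.6 CPM in controls. Both knockout libraries were lower than both controls in all 3 regions. The log2 folds were -1.06 ± 0.49, -0.84 ± 0.37 and -0.63 ± 0.36 (SE) in that order of regions, with adjusted p of 0.0701, 0.0591 and 0.269 in edgeR, so none was called. The sign was negative under all alternatives, down to -0.19 upstream with receptor gene scaling, and the gene body value passed without knockout replicate 2 (-1.04, adjusted p = 0.0175). Separation downwards in all 3 regions was found in 18.6% of the 17654 genes tested in all of them. The counts of Gp6 were spread over the regions alike in every library: the upstream share was 19.0% and 20.1% in knockout libraries, and 16.2% and 21.4% in controls.

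Gp6 and Itga2b can be set against each other within a library, where scaling cancels. This ratio was chosen after the values were seen. In gene bodies the count of Gp6 was 0.68 and 0.96 times that of Itga2b in knockout libraries, against 3.76 and 2.07 times in controls. Upstream the ratio was 0.56 and 0.89 in knockout libraries, against 3.07 and 1.90 in controls, and downstream 1.92 and 1.53 against 6.11 and 2.67. The genes were picked for the opposite signs of their log2 folds, so these ratios are a description with no test. For Itgb3 over Itga2b, the chains of 1 receptor, the upstream ratio was 1.28 and 0.85 in knockout libraries, against 2.07 and 1.19 in controls, which overlapped.

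**Figure D3:**
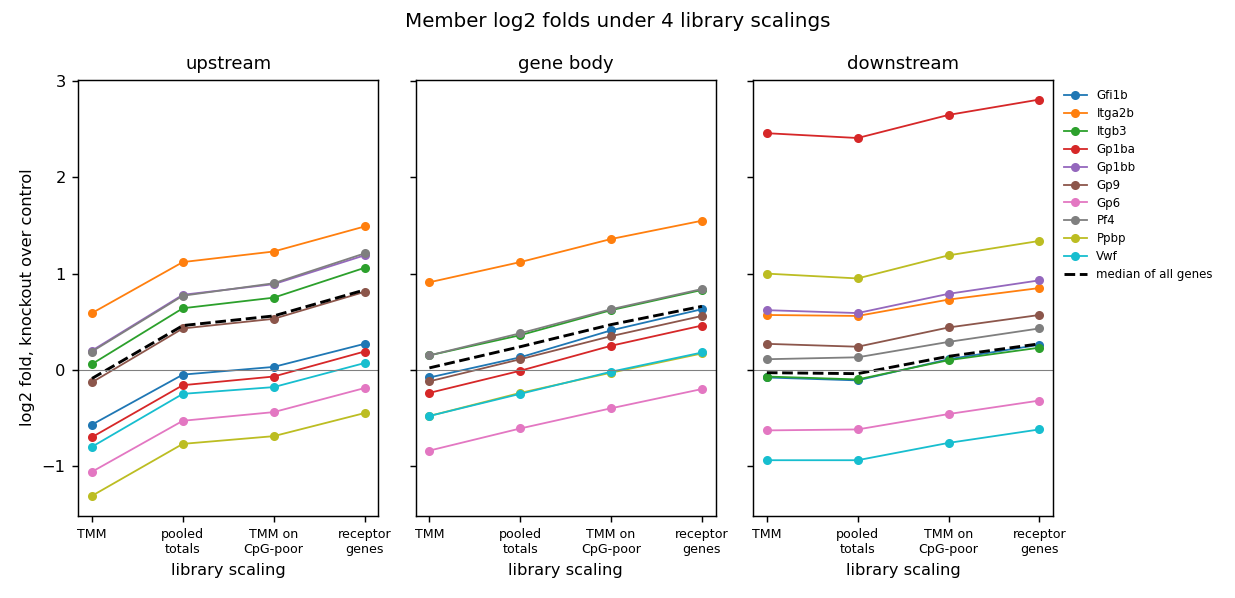
Log2 fold (knockout over control) of each member under 4 ways of scaling the libraries, with the median of all genes as a dashed line, in the 3 region classes. All lines move together with the scaling, and Gp6 stays below 0 and Itga2b above 0 throughout, while the upstream value of Vwf is -0.80 with TMM and 0.07 with receptor genes.

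Pf4 and Ppbp are neighbours in the chemokine cluster of chromosome 5 and encode the main chemokines of platelet granules. Ppbp (90768518 to 90770063, plus strand) ends 2372 bases before Pf4 (90772435 to 90773383, plus strand) starts. Their windows therefore overlap. The upstream window of Pf4 holds the whole gene body of Ppbp and 1083 bases of its upstream window. The downstream window of Ppbp holds the whole gene body of Pf4 and 1680 bases of its downstream window. Most genes inside another gene had no gene body count. Counts in stretches shared by windows of 1 region class may be missing too, which was not tested. Upstream of Ppbp the knockout libraries had 10.2 and 19.9 CPM, against 36.4 and 39.0 CPM in controls. Both knockout libraries lay below both controls (15.1 ± 6.87 CPM in knockout libraries and 37.7 ± 1.76 CPM in controls, SD, n = 2 each). The log2 fold was -1.31 ± 0.50 (SE; 95% interval -2.29 to -0.33; adjusted p = 0.0284 in edgeR), from counts of 9 and 18 in knockout libraries and 42 and 47 in controls. The sign held under every alternative, but the call did not. It was lost with pooled totals (-0.77, adjusted p = 0.265), receptor gene scaling (-0.45, 0.516) and DESeq2's Wald test (-1.27, 0.114), and without any single library: -0.87 (adjusted p = 0.209) without knockout replicate 1, -1.72 (0.0633) without knockout replicate 2, -1.36 (0.342) without control replicate 1 and -1.26 (0.209) without control replicate 2.

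Past the end of Ppbp the order was turned round. Downstream it had 108 and 39.6 CPM in knockout libraries, against 35.2 and 36.7 CPM in controls. Knockout replicate 1 was high and knockout replicate 2 only just above the controls, and the log2 fold was 1.00 ± 0.42 (SE; adjusted p = 0.125 in edgeR). Without knockout replicate 2 it was 1.65 (adjusted p = 0.000102), and over the libraries left out in turn it ranged from 0.14 to 1.65. Between these windows, the gene body of Ppbp had 1.85 and 2.09 CPM in knockout libraries, against 3.46 and 2.08 CPM in controls (-0.48 ± 0.57, adjusted p = 0.509). As shares of the gene's own counts over its 3 regions, the upstream window held 11.7% and 29.0% in knockout libraries, against 34.4% and 41.2% in controls. The downstream window held 75.3% (95% Wilson interval 64.6 to 83.6) and 48.4% (36.4 to 60.6) in knockout libraries, against 36.9% (28.8 to 45.7) and 40.4% (31.8 to 49.5) in controls. These intervals cover counting error only, and the exact permutation p (two-sided) was 0.333 for both shares, the smallest possible here. Over all genes the upstream share was higher in knockout libraries, at 16.5% and 11.4%, against 7.86% and 8.43% in controls, which is the opposite of the order at Ppbp.

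**Figure D4:**
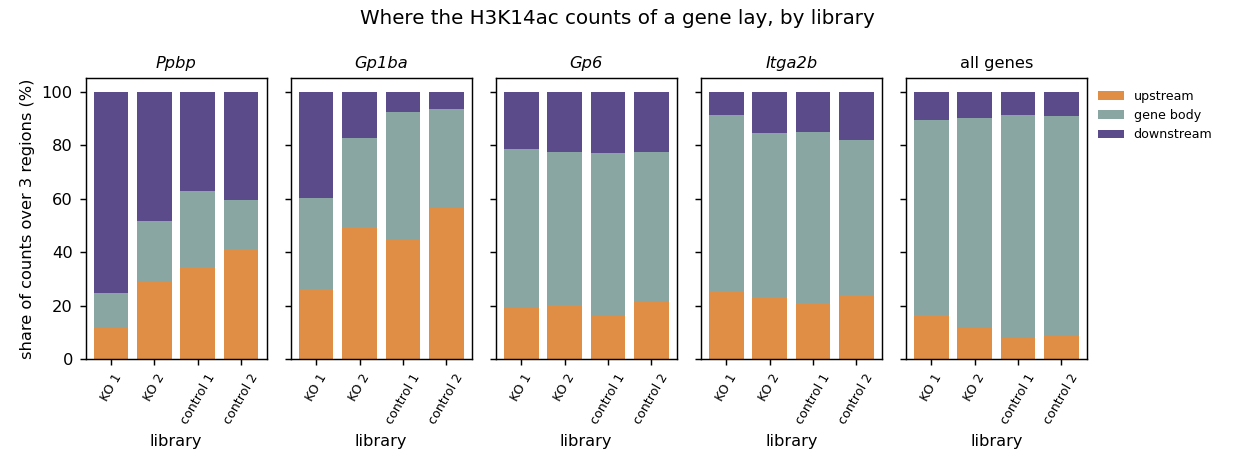
Share of a gene's counts (%) in its upstream, gene body and downstream regions, for 4 members and for the sum of all genes, with the 2 knockout libraries left of the 2 controls. Ppbp and Gp1ba have larger downstream shares in the knockout libraries, with 75.3% and 48.4% for Ppbp against 36.9% and 40.4% in controls. Gp6 has like shares in all 4. The downstream share of Itga2b was 8.5% and 15.2% in knockout libraries, against 14.7% and 18.1% in controls.

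Pf4 itself did not follow Ppbp upstream. It had 55.7 and 33.2 CPM in knockout libraries, against 39.1 and 39.0 CPM in controls, so the control values lay between those of the knockout libraries (log2 fold 0.19 ± 0.46, adjusted p = 0.753 in edgeR). Its gene body had 3.70 and 2.39 CPM in knockout libraries, against 3.26 and 2.18 CPM in controls (0.15 ± 0.56, adjusted p = 0.847). Per kilobase of this 949-base gene body the level was at the 95.3rd percentile of all genes in knockout libraries and the 95.9th in controls. The 5 kb upstream window ranked lower, at the 70.5th percentile in knockout libraries and the 67.9th in controls. Downstream the groups overlapped again, with 57.8 and 79.1 CPM in knockout libraries and 81.4 and 46.3 CPM in controls (0.11 ± 0.38, adjusted p = 0.872).

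Vwf (chromosome 6, 125552948 to 125686679, plus strand) encodes von Willebrand factor, the adhesive protein made by megakaryocytes and by endothelial cells. Upstream it had 50.01 and 99.7 CPM in knockout libraries, against 144 and 117 CPM in controls. Over its gene body, the longest of the members, it had 222 and 224 CPM in knockout libraries, against 341 and 280 CPM in controls. Downstream it had 65.3 and 71.2 CPM in knockout libraries, against 147 and 115 CPM in controls. As with Gp6, both knockout libraries were lower than both controls in all 3 regions. The same was found in 18.6% of the 17654 genes tested in all of them. The log2 folds were -0.80 ± 0.59, -0.48 ± 0.31 and -0.94 ± 0.45 (SE) in that order, with adjusted p of 0.260, 0.204 and 0.182 in edgeR. With receptor gene scaling the first and second of these turned positive (0.07 and 0.18), and the downstream value stayed negative under every alternative (-0.62 with that scaling). That window also holds the start site of Ano2, a chloride channel family gene, whose part in the value was not tested. The upstream window stood at the 88.1st percentile of all genes in knockout libraries and the 98.1st in controls, and the downstream window at the 86.1st and the 98.7th.

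Since Vwf is also an endothelial gene, the mark at markers of other cells is given beside it. The summed upstream level of 6 endothelial and stromal markers was 197 and 259 CPM in knockout libraries, against 427 and 360 CPM in controls. The sum over 4 genes of other tissues (Alb, Ins2, Neurod1 and Myh6) was 90.9 and 175 CPM in knockout libraries, against 327 and 285 CPM in controls. The groups overlapped in the upstream sums of the other lists. For 8 LSK genes the sum was 452.3 and 477.5 CPM in knockout libraries, against 505.2 and 415.2 CPM in controls. For 10 lineage genes it was 658.1 and 604.9 CPM in knockout libraries, against 779.4 and 637.3 CPM in controls. In gene bodies the LSK sum was 1072 and 1207 CPM in knockout libraries, against 1575 and 1381 CPM in controls. Downstream it was 645.1 and 468.2 CPM, against 439.8 and 434.9 CPM. The sums of the endothelial and stromal markers and of the other tissues were lower in knockout libraries in these regions too. The lineage sum overlapped in gene bodies and was higher downstream. No marker in these lists was at 0 upstream, and the part of other cells in the Vwf values was not tested. The level of the mark did not tell the sorted cell type: in controls the upstream percentiles of 8 LSK genes ran from 49.0 to 97.6, those of 10 lineage genes from 43.5 to 96.9, those of the endothelial and stromal genes from 51.9 to 97.5, and those of the 4 genes of other tissues from 31.7 to 98.3. The label of the sort thus cannot be checked on these values.

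Read as a group, the 10 genes did not move one way. Upstream, 6 of 10 log2 folds were negative and the median was -0.35, against -0.09 for all genes. In gene bodies 6 of 9 were negative with a median of -0.12, against 0.02, and downstream 4 of 10 were negative with a median of 0.19, against -0.04. Upstream the groups did not overlap at 6 of 10 members, against 77.8% of all upstream regions: the knockout libraries lay below the controls at 5 members (39.9% of all regions) and above them at 1 (37.8%). In gene bodies they were apart at 3 of 9 members, against 80% of all gene bodies, with 2 below (39.4%) and 1 above (40.6%). Downstream they were apart at 5 of 10 members, against 62.6% of all windows, with 2 below (32.7%) and 3 above (29.9%). These splits depend on the scaling. Receptor gene scaling lifted the all-gene median by 0.92, 0.65 and 0.30 in the order upstream, gene body, downstream, and left 2, 1 and 2 members negative. Pooled totals lifted it by 0.56 and 0.22 in the first and second of these, and left 5, 4 and 4 members negative. Of the 29 member regions, 11 kept 1 sign under all 12 other settings. They were all 3 regions of Gp6 and of Itga2b, the upstream and downstream windows of Ppbp, and the downstream windows of Gp1ba, Gp1bb and Vwf.

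Of the 10 genes 9 had a CpG-poor start site, as did 14136 of the 25201 genes with a position. The ratio of observed to expected CpG within 500 bases on each side of the start ran from 0.04 (Gp6) to 0.44 (Gp1bb), and only Itgb3, at 0.69, was above the 0.6 used to part CpG-poor from CpG-rich. Over all genes, upstream regions of CpG-poor genes had a median log2 fold of -0.71, with 8.63% higher and 23.6% lower in knockout of 11489 tested. CpG-rich genes had a median of 0.93, with 42.7% higher and 3.42% lower of 10322 tested. The 9 CpG-poor members had a median of -0.57, with 0 higher and 1 lower. In gene bodies the medians were -0.18 for 8 CpG-poor members and -0.47 for all CpG-poor genes, and downstream 0.27 for 9 members and -0.22 for all CpG-poor genes. Itgb3, the CpG-rich member, had 0.06 upstream, under the median of its class.

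**Figure D5:**
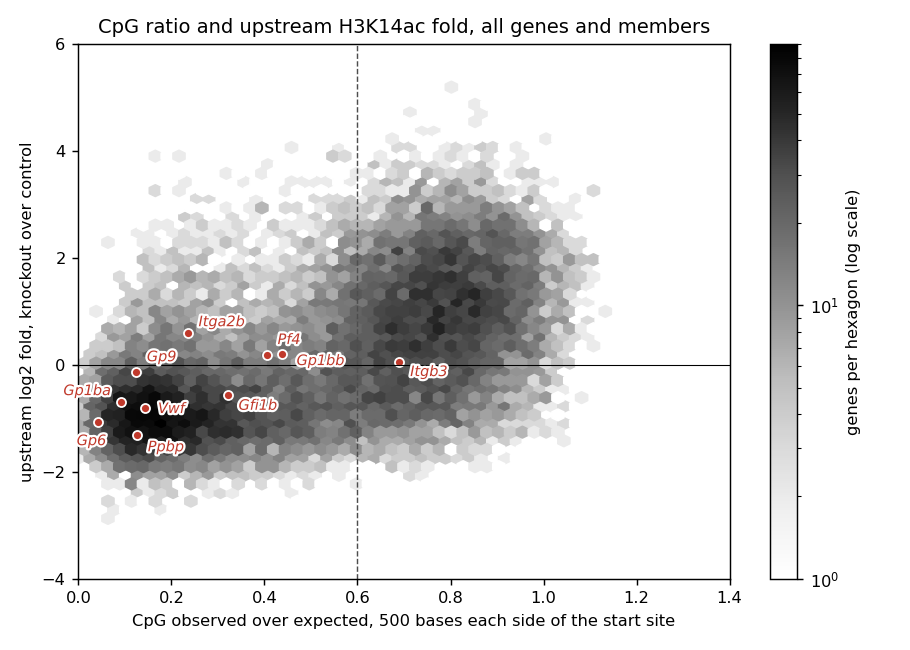
Upstream log2 fold of H3K14ac (knockout over control) against the CpG ratio around the start site, for all genes as shaded hexagons (darker for more genes, log scale) and the 10 members as red points. The dashed line is the ratio of 0.6. Of the members, 9 lie left of it, where the median of all genes was -0.71, and Itgb3 lies right of it, where the median was 0.93.

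The sequences just before the start sites were searched for short motifs of megakaryocyte factors, on both strands, in the 250 bases available for 8 members (no entry for Itgb3 and Vwf). GATA motifs (AGATAA or AGATAG or TGATAA or TGATAG) were found in 4 of 8: Gfi1b, Gp1bb, Gp6 and Gp1ba, which held 3. Such a match was present in 27.1% of 27025 mouse promoters of this length. In the sequence of Gp6 printed above, it lies 144 to 139 bases before the start, and in that of Gp1ba the 3 matches begin 104, 51 and 23 bases before it. ETS motifs (CCGGAA or CAGGAA) were found in Itga2b, Gp1ba and Ppbp, 3 of 8, against 34.9% of promoters. In Ppbp the match lies 180 to 175 bases before the start and in Itga2b 52 to 47. A RUNX motif (TGTGGT or TGCGGT) was found in Gp9 alone (18.7% of promoters), and the NF-E2 or AP-1 motif (TGACTCA or TGAGTCA) in 0 of 8 (4.4% of promoters). All 250 bases searched for Gp9 lie inside the annotated span of that gene, so its match may lie within the gene. None of the printed matches overlap one another. Members with a GATA match had upstream log2 folds from -1.06 (Gp6) to 0.20 (Gp1bb), and Pf4, with no match to any of the 4 motifs, had 0.19.

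The wider set of 73 other megakaryocyte and platelet genes gives the setting of the 10. Upstream, 28 of 71 tested rose and 4 fell, against 24% and 14.3% of all genes, and the median log2 fold was 0.71. In gene bodies 29 of 71 rose and 3 fell (median 0.35), against 23.1% and 15.2% of all gene bodies. Downstream 15 of 64 rose and 1 fell (median 0.30), against 10.8% and 2.29% of all windows. The counts were uneven over the roles, without a test between them, and are read against the same 24% and 14.3% of all upstream regions. Of 13 transcription factor genes 8 rose upstream and 0 fell (median 1.5), and of 15 signalling genes 9 rose and 0 fell (median 1.62). Of 21 receptor and adhesion genes, the role closest to most of the members, 2 rose and 2 fell (median -0.16). Among those with a CpG-rich start site 20 of 34 rose and 0 fell, against 42.7% and 3.42% of all CpG-rich genes tested upstream. Among those with a CpG-poor one 8 of 37 rose and 4 fell, against 8.63% and 23.6% of all CpG-poor genes. In gene bodies the order was as upstream, with 19 of 36 CpG-rich and 10 of 35 CpG-poor genes higher. Downstream the order was turned round. There 11 of 31 CpG-poor genes rose and 1 fell, against 7.87% and 2.98% of all CpG-poor genes. Of the CpG-rich ones 4 of 33 rose and 0 fell, against 14.1% and 1.43%. Of 19 receptor and adhesion genes 5 rose downstream and 1 fell. Of 12 transcription factor genes 2 rose there, and of 14 signalling genes 3 rose, with 0 lower in either. The 32 upstream calls shrank in number when any 1 library was left out, as did those over all genes.

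The leading genes of this wider set upstream were Nbeal2, needed for platelet α-granules, Fermt3, an activator of platelet integrins, and the cytoskeletal genes Flna and Tln1, which bind integrin or GPIb tails. Nbeal2 had 106 and 34.4 CPM in knockout libraries, against 5.21 and 7.46 CPM in controls (log2 fold 3.44 ± 0.53 SE, adjusted p = 2.63e-08 in edgeR). Fermt3 rose by 3.88 ± 0.67, Flna by 3.20 ± 0.55 and Tln1 by 2.38 ± 0.49 on the same scale. The windows of Nbeal2 and Tln1 also hold the start sites of Ccdc12 and Creb3, that of Fermt3 overlaps Stip1, and that of Flna holds none. In gene bodies Srgn, the granule proteoglycan gene, had 198 and 66.2 CPM in knockout libraries, against 6.03 and 11.5 CPM in controls (3.91 ± 0.37), over a deposited length that was 39.7% of its RefSeq span, so what was counted as its gene body is uncertain. Mafg, a partner of NF-E2, rose by 4.38 ± 0.43, Flna by 3.40 ± 0.42 and Plek, the gene of the platelet protein pleckstrin, by 2.40 ± 0.31. Downstream the leading genes were Btk (3.91 ± 0.55), Cnn2 (4.76 ± 0.67), Vps33b (3.33 ± 0.47) and Mafg (2.48 ± 0.46), and each of these windows holds the start of another gene (Timm8a1, Abca7, Prc1 and Sirt7). Knockout replicate 1 was the higher of the knockout libraries at each of these genes.

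The few genes of the wider set that fell were named after their values were seen. Upstream they included Treml1, a granule membrane receptor gene, Mmrn1, the multimerin gene, and Tubb1, the platelet tubulin gene, with log2 folds of -1.47, -1.51 and -1.53. Upstream of Tubb1 the knockout libraries had 47.7 and 53.2 CPM, against 185 and 106 CPM in controls (adjusted p = 0.0301 in edgeR). In gene bodies they were Treml1 (-1.07 ± 0.37 SE, adjusted p = 0.0191 in edgeR), Thbs1 (-0.99 ± 0.35, 0.0193) and Serpine2 (-0.82 ± 0.29, 0.0222), and downstream Cd36 (-1.49 ± 0.40, 0.0192). The lower calls of this list depended on the scaling. Upstream 36 genes rose and 0 fell with pooled totals, and 27 and 0 with receptor gene scaling. In gene bodies 31 rose and 0 fell with pooled totals, and 29 and 0 with receptor gene scaling. Downstream, 13 rose and 0 fell with receptor gene scaling. Over all genes the lower calls shrank as well. Upstream they were 3328 with TMM, 458 with pooled totals and 39 with receptor gene scaling. In gene bodies they were 3260, 1360 and 191 in that order, and downstream 493 with TMM and 61 with receptor gene scaling. The lower calls of this list and of all genes also changed in number with single libraries left out.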

How the data were processed

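H3K14ac CUT&Tag was counted in 2 Hbo1 knockout and 2 heterozygous control libraries of LSK cells. The authors deposited raw counts per gene, in 1 table for each of 3 region classes, counted with featureCounts on mm10, per the submitters' processing notes. The aligner, annotation release, treatment of duplicates, filters and any spike-in are not given in the sources used here, so a gain or loss of the mark over the whole genome cannot be seen. The 12 files of single libraries held the same values as the tables.

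Each table was tested on its own for all genes with edgeR 4.0.16 (R 4.3.3): filterByExpr (minimum count 10, minimum total 15), TMM, glmQLFit and glmQLFTest, with Benjamini-Hochberg adjustment over all genes tested and a threshold of 0.05. CPM used the TMM-scaled totals. Errors of log2 folds are edgeR-based standard errors with 95% intervals. Alternatives were DESeq2 1.42.0 (its size factors in edgeR, and its Wald test), totals pooled over region classes, factors from 1485 olfactory and vomeronasal receptor genes, no filter, each library left out, and blocks. Leaving out a library leaves a group of 1, which is assumed to vary like the other group. The scripts were tested on simulated data.

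Entrez identifiers were matched to symbols, positions and promoters of RefSeq GRCm38.p6: 25275 of 27179 genes had a symbol and 25201 a position, and the span of curated transcripts was within 1% of the deposited length for 84.0% of these. CpG ratios were taken within 500 bases of the start. Percentiles rank CPM per kilobase over all genes of a region class.

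The text names all 10 members and, of the 73 other genes found of 74 listed, in each region class up to 4 with the smallest p among those called, plus genes of that list that fell, which were chosen after their values were seen. Members and lists were chosen with earlier results of these data known. An item of the wider list is not reported here.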

Additional observations from a re-analysis of the deposited data

How the results depend on the processing

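Of 348 comparisons of a member's log2 fold with an alternative, 288 kept direction and side of the threshold and 39, all of values that were not called, changed sign. With receptor gene scaling the changed values were 0.27 (upstream), 0.63 (gene body) and 0.26 (downstream) for Gfi1b, 0.19 and 0.46 for Gp1ba upstream and gene body, 0.81 and 0.56 for Gp9 upstream and gene body, 0.07 and 0.18 for Vwf upstream and gene body, 0.17 for Ppbp gene body and 0.23 for Itgb3 downstream. With TMM on CpG-poor genes they were 0.03, 0.41 and 0.11 for Gfi1b, 0.25 for Gp1ba gene body, 0.53 and 0.35 for Gp9 upstream and gene body and 0.10 for Itgb3 downstream, and with pooled totals 0.13 for Gfi1b gene body and 0.43 and 0.11 for Gp9 upstream and gene body. With libraries left out in turn, the log2 folds that changed sign ranged from -0.71 to 0.43 (gene body) and -0.60 to 0.42 (downstream) for Gfi1b, -0.11 to 0.40, -0.04 to 0.39 and -0.40 to 0.34 for the 3 regions of Itgb3, -0.19 to 0.66, -0.15 to 0.49 and -0.25 to 0.57 for those of Pf4, -0.51 to 0.08 for Gp1ba gene body, -0.12 to 0.64 for Gp1bb upstream, and -0.25 to 0.08 and -0.01 to 0.60 for Gp9 gene body and downstream. Without any 1 library the upstream calls were 0 among the members, 0 to 16 among the 73 other genes (reported 32) and 0 to 2303 among all genes (reported 8885). Without knockout replicate 1 no upstream region passed in edgeR, though 5770 had an unadjusted p under 0.05. In gene bodies the same ranges were 0 to 2 members (reported 0), 11 to 39 other genes (reported 32) and 1430 to 11313 of all genes (reported 8195), and downstream 0 to 2 (reported 1), 5 to 18 (reported 16) and 695 to 4933 (reported 2831). Members called upstream were 0 with pooled totals, receptor gene scaling, DESeq2's Wald test and TMM on CpG-poor genes. In gene bodies they were 1 (Itga2b) with pooled totals, receptor gene scaling and TMM on CpG-poor genes, and receptor gene scaling called 4615 of all gene bodies, where fewer fell. The split of upstream calls over all genes, 5557 higher and 3328 lower with TMM, was 7188 and 39 with receptor gene scaling, 7668 and 458 with pooled totals and 7354 and 216 with TMM on CpG-poor genes. Deviations of same-numbered libraries from their group means correlated at -0.284 upstream, -0.359 in gene bodies and -0.22 downstream. With 2 libraries per group these values cannot settle whether the replicate numbers pair the libraries. With the replicate block the calls upstream were 0 members, 14 other genes and 4353 of all genes, in gene bodies 18 other genes and 3679 of all genes, with 0 of these other genes lower in either region class and no other count moved by over 1.5 times. A crossed block, chosen after seeing the data like TMM on CpG-poor genes, called 2 members upstream, 3 in gene bodies and 2 downstream. Over all genes it called 11874 of 23200 upstream regions, 12047 of 21393 gene bodies and 5187 of 21566 downstream windows. The cause of these differences was not tested. Depth limits the members most where counts are low, as over the gene bodies of Gp1bb, Ppbp and Pf4. Other such regions are the called window downstream of Gp1ba (8 to 35 per library) and the windows of Gp1bb (13 to 25) and Ppbp (9 to 58).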
